A study of Mus musculus with 6 samples.

Results

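The Mu-class glutathione transferases of the mouse, Gstm1 to Gstm7, were described across the livers of control and sulfasalazine-treated mice. The 7 genes were taken by name from a table of 42612 loci: for 6 of them the row with that name and an Ensembl transcript was used. Gstm1 has no row of its own name, and the row that holds its Ensembl transcripts was used instead. That row carries the label of the pseudogene Gm12499 and also holds transcripts of the long noncoding RNA Gm12498, so every value given here for Gstm1 pools the 3 genes. All 7 loci passed the filter on low values, at least 1 FPKM in at least 3 libraries, as did 11969 of the loci in all. FPKM divides fragment counts by transcript length and library total, so levels of different genes can be set side by side.

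The libraries came from livers of male ICR mice, an outbred stock, labelled as 8 weeks old. Sulfasalazine, a drug used against inflammatory bowel disease and arthritis, was given to 1 group by gavage at 1000 mg/kg for 4 weeks. The control group was gavaged with the same 10 mL/kg volume of the vehicle, 0.1% DMSO, which the treated mice also received. Each group has 3 libraries, numbered 1 to 3, drawn from study groups of 10 mice; the labels do not say that the 3 came from separate animals, so the p-values measure the spread between these samples, which may be technical. Each library is called a liver here. The cage of each mouse is not given in the labels. By the series' title the study asked how the drug injures the liver. Depth cannot be read from FPKM, and the values summed to between 224434 and 260047 per library.

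The tissue label was checked against hepatocyte genes. All 8 chosen hepatocyte markers, such as Alb and Ttr, passed the filter, with summed FPKM of 20608 to 26387 in the control and 21024 to 23443 in the treated livers. Cholangiocyte markers, which mark bile duct cells, summed to 5.97 FPKM or less in each liver.

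Glutathione transferases join the tripeptide glutathione to reactive, electrophilic compounds, which makes them water-soluble and ready for export from the cell. The Mu class is a family of cytosolic enzymes that work as dimers, and in mouse liver Gstm1 is its best known member. Hepatocytes raise several transferases when electrophiles activate NRF2 or when drugs activate the nuclear receptors CAR and PXR, and mouse Gstm3 is known as one of the inducible members.

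By the GENCODE M21 annotation, the 7 genes lie side by side on chromosome 3 of GRCm38, from 107895821 to 108044894, a span of 149.1 kb. All are annotated as protein-coding. Gstm5 stands first and on the forward strand, and it is followed on the reverse strand by Gstm7, Gstm6, Gstm3, Gstm2, Gstm1 and Gstm4. Gstm3, which differed most between the groups, occupies 107963696 to 107969283, and Gstm1, the most abundant, 108012255 to 108017973. Because the copies are alike, the first bases of their coding sequences are shown from the GENCODE transcripts. Each line gives 60 bases, 5′ to 3′, and capitals mark bases that differ from Gstm3; the Gstm5 line starts at base 10 of its coding sequence, since its start is longer.
Gstm3: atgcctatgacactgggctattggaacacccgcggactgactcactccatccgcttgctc
Gstm1: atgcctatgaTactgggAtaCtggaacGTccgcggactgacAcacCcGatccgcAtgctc
Gstm2: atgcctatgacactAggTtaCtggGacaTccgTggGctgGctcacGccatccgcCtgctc
Gstm6: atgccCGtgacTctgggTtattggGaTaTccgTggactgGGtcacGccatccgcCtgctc
Gstm4: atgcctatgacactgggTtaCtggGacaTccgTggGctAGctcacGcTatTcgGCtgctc
Gstm7: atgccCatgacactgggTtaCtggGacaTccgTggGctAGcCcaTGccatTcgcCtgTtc
Gstm5: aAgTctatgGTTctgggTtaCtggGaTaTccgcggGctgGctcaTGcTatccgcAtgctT

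Over these 60 bases Gstm1 differed from Gstm3 at 9 positions, Gstm2 at 10, Gstm6 at 12, Gstm4 at 13, Gstm7 at 15 and Gstm5 at 17. Over the whole coding sequence the closest pair was Gstm1 and Gstm3, with 89.5% of 657 aligned bases identical, and the most distant was Gstm3 and Gstm5, with 69.1%. Such likeness matters for counting, since a read from a shared stretch cannot be assigned to 1 gene. All windows of 50 bases in each member's longest coding transcript were therefore looked up in every other gene's transcripts. For Gstm4, Gstm5 and Gstm7 none was found elsewhere, that is 0% of 1658, 896 and 1328 windows. For Gstm3 28.8% of windows recurred, most of them in the pseudogenes Gm8834 and Gstm2-ps1 and in Gstm1. Gstm1 shared 23.1%, Gstm6 11.5% and Gstm2 9.36%. Of the pseudogenes with a row of their own, Gstm2-ps1 reached at most 0.272 FPKM and Gm12494 at most 0.0187 FPKM in any liver. No row was matched to Gm8834, which shares 16.0% of the Gstm3 windows, the most of any gene, so its level is not known. Gm12499 is pooled with Gstm1. How many reads were ambiguous was not tested, since the sources used here do not give the read length.

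Gstm3 showed the widest gap between the groups. It had 8.84, 22.4 and 11.3 FPKM in control livers 1 to 3 and 195, 168 and 214 FPKM in the treated livers. The lowest treated liver was far above the highest control, and the means were 14.2 ± 7.26 and 192 ± 22.8 FPKM (SD, n = 3 each), a ratio of 13.6. On the log2(FPKM + 1) scale, used for every fold change given here, the difference was 3.77 (SE 0.33) with a 95% interval of 2.95 to 4.58 (limma, adjusted p = 0.0524). By p it ranked 5 of 11969 tested loci, just short of the 0.05 threshold. Leaving out control 2, the control liver with the most Gstm3, gave a fold change of 4.13 and a call (limma, adjusted p = 0.0185); leaving out any other liver gave none. A minimum of 5 FPKM, only loci with an Ensembl transcript, FPKM summed per gene name and a fit without limma's mean-variance trend each gave a call too, with adjusted p by limma between 0.0191 and 0.0427. In bulk liver RNA, more cells that express a gene and more RNA per cell cannot be told apart.

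Gstm2, whose human namesake is known as the muscle form, came next. Its FPKM were 9.32, 14.7 and 12.2 in the control livers and 41.6, 64.7 and 55.5 in the treated livers. The groups did not overlap, and here control 2 was again the highest control while sulfasalazine 2 was the highest treated liver. Means were 12.1 ± 2.70 and 53.9 ± 11.6 FPKM (SD, n = 3 each), and the log2 fold change was 2.07 (SE 0.23) with a 95% interval of 1.51 to 2.63 (limma, adjusted p = 0.0686). Without the mean-variance trend the same change passed (limma, adjusted p = 0.0351).

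Gstm1, the main Mu-class enzyme of mouse liver, had the highest level of the family in every liver. Its pooled locus stood at 56.6, 142 and 71.9 FPKM in the control livers and at 302, 177 and 256 FPKM in the treated livers. Control 2 came close to sulfasalazine 2, but the groups did not overlap. On the log2 scale Gstm1 was higher by 1.51 (SE 0.39) with a 95% interval of 0.57 to 2.45 (limma, adjusted p = 0.429).

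Gstm4, which the table's annotation links, like several members, to nitrobenzene metabolism, followed the same order of livers. It had 8.69, 23.2 and 11.9 FPKM in the control livers and 37.8, 26.6 and 35.5 FPKM in the treated livers, again without overlap. Control 2 was the highest control and sulfasalazine 2 the lowest treated liver, as for Gstm1. The log2 fold change was 1.23 with a 95% interval of 0.37 to 2.10 (limma, adjusted p = 0.500).

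Gstm6, which the table annotates only with general transferase activity, had 7.63, 15.3 and 6.32 FPKM in the control livers and 12.5, 24.3 and 25.98 in the treated livers. Sulfasalazine 1 lay below control 2, so the groups overlapped. The log2 fold change was 1.05 with a 95% interval of 0.09 to 2.02 (limma, adjusted p = 0.639).

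Gstm7 was lower in the treated livers. This gene, which the table's annotation ties to calcium release from the sarcoplasmic reticulum, had 17.7, 19.6 and 17.1 FPKM in the control livers and 5.88, 16.8 and 11.1 FPKM in the treated livers. All treated livers were below all controls, though sulfasalazine 2 was only slightly below control 3. The log2 fold change was -0.75 with a 95% interval of -1.57 to 0.08 (limma, adjusted p = 0.711), and it was -0.38 without sulfasalazine 1. Among the treated livers the order of Gstm7 was the reverse of that of Gstm1 and Gstm4.

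Gstm5, the most distant copy, which the table's annotation places in the sperm fibrous sheath, was the lowest of the family. It had 2.29, 4.02 and 3.60 FPKM in the control livers and 3.57, 2.87 and 4.39 FPKM in the treated livers, and the groups overlapped. Its log2 fold change was 0.11 with a 95% interval of -0.39 to 0.61 (limma, adjusted p = 0.926), and its sign turned when control 1 (-0.072) or sulfasalazine 3 (-0.0085) was left out. The antisense gene 4933431E20Rik overlaps the start of Gstm5, and it had at most 0.464 FPKM in any liver. The sources used here do not say whether reads were counted by strand.

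**Figure D1:**
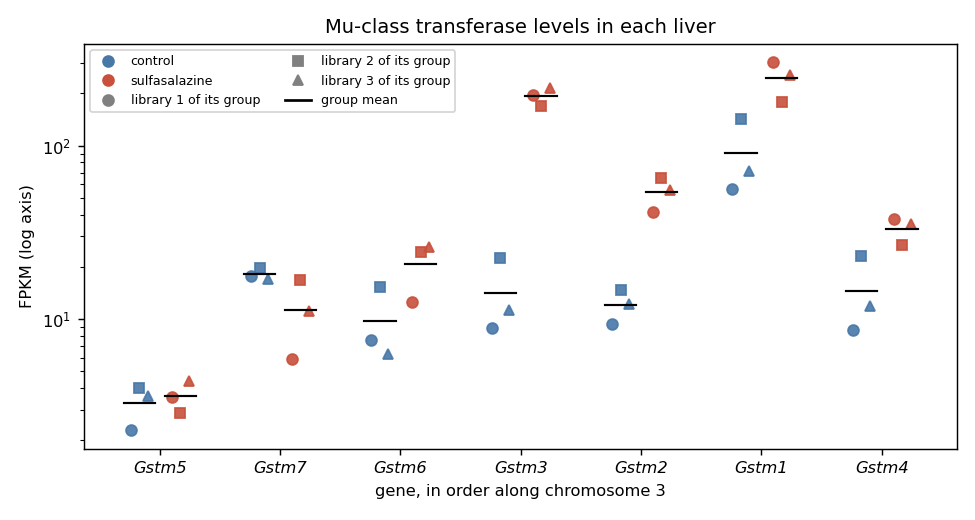
FPKM (log axis) of each Mu-class gene in each of the 6 livers, in chromosome order; colours give the group, symbols the number of the library within its group, and lines the group means. Gstm3 lies at 8.84 to 22.4 FPKM in control livers and at 168 to 214 in treated livers, Gstm5 overlapped, and Gstm7 was lower in treated livers.

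Counted over the family, 0 of 7 members passed the adjusted threshold in either direction, where 0.0167% of all tested loci passed upward and 0% downward. With limma's unadjusted p under 0.05, 5 members were higher and 0 lower, against 3.64% and 3.87% of all tested loci. Groups did not overlap for 4 members upward and 1 downward, against 6.71% and 6.46% of all tested loci. The median log2 fold change of the 7 genes was 1.23, beside -0.0021 over all tested loci. The members were chosen with earlier results of these data known, so these counts describe them and carry no test.

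The order of the levels differed between the groups. In control livers Gstm1 led with a mean of 90.3 FPKM, followed by Gstm7, Gstm4, Gstm3, Gstm2, Gstm6 and Gstm5. The 5 genes between Gstm1 and Gstm5 had means of 9.74 to 18.2 FPKM, and the ranges of neighbours in this order overlapped among them. In treated livers the order was Gstm1, Gstm3, Gstm2, Gstm4, Gstm6, Gstm7 and Gstm5, so that Gstm3 moved from the fourth place to the second and Gstm7 from the second to the sixth. The treated ranges of Gstm1 and Gstm3 overlapped, as did those of Gstm6 and Gstm7, while the other neighbours lay apart.

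The family sum was 111, 242 and 134 FPKM in the control livers and 598, 481 and 603 FPKM in the treated livers. The lowest treated sum was nearly double the highest control sum, and the means were 162 ± 69.7 and 561 ± 68.99 FPKM (SD, n = 3 each), a log2 ratio of 1.79. As a share of all FPKM in a library the family held 0.0427% to 0.1001% in control and 0.189% to 0.245% in treated livers. Of the difference between the mean sums, 44.7% came from Gstm3, 38.9% from the Gstm1 locus and 10.5% from Gstm2. Without the pooled Gstm1 locus the log2 ratio of the sums was 2.13.

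The make-up of the sum also differed. Gstm3 held 7.96%, 9.29% and 8.39% of it in the control livers and 32.6%, 35.0% and 35.5% in the treated livers, a narrow range within each group. The share of Gstm1 averaged 54.5% ± 4.07 without and 43.3% ± 6.83 with the drug, and that of Gstm7 12.3% ± 3.95 and 2.10% ± 1.27 (SD, 3 livers a group). Gstm2 kept overlapping shares, 6.09% to 9.11% and 6.96% to 13.5%.

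**Figure D2:**
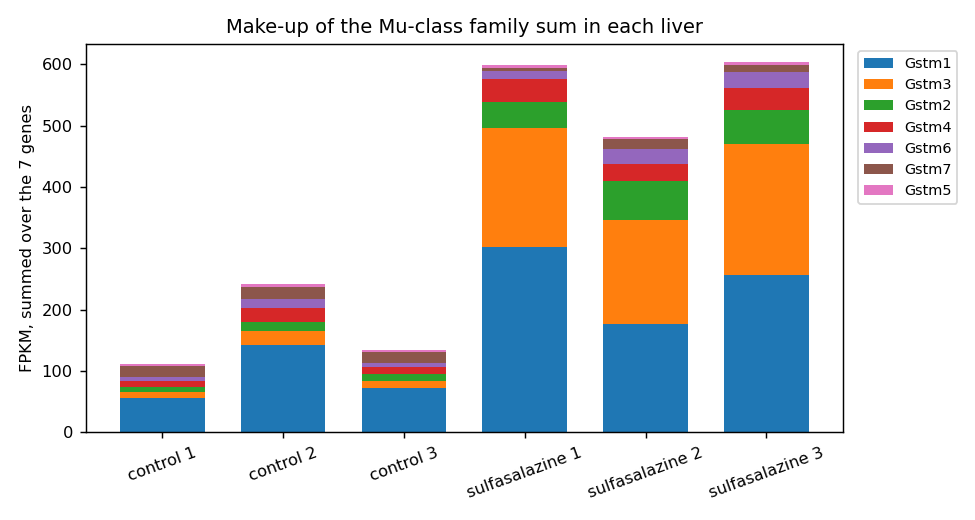
FPKM summed over the 7 genes in each liver, with a coloured segment for each gene. The sums reach 111 to 242 in control and 481 to 603 in treated livers, and the Gstm3 segment is at most 9.29% of a control bar and at least 32.6% of a treated one.

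The control livers differed in family level, and there the members shared much of their order. Control 2 was the highest control for 7 of 7 members, with Gstm1 at 2.52 times, Gstm3 at 2.54 times and Gstm4 at 2.67 times the lowest control. The share of all tested loci with control 2 highest among the controls was not computed, so this count is a description. Ratios between members within a liver show how closely they kept step. In the control livers the ratio of Gstm1 to Gstm3 was 6.40, 6.34 and 6.38, a mean of 6.37 ± 0.0276 (SD, n = 3). The ratio of Gstm3 to Gstm4 was 1.02, 0.967 and 0.950 there. These 3 genes thus stood in nearly fixed proportion while their levels varied more than 2.5-fold. Other pairs varied more in the control livers: Gstm1 to Gstm7 ran from 3.19 to 7.26 and Gstm1 to Gstm2 from 5.88 to 9.68. The Gstm1 locus is pooled and shares windows with Gstm3, as given above.

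The treated livers had no common order: sulfasalazine 1 was highest for Gstm1 and Gstm4, sulfasalazine 2 for Gstm2 and Gstm7, and sulfasalazine 3 for Gstm3, Gstm5 and Gstm6. All ratios between Gstm1, Gstm3 and Gstm4 lay apart from those of the control livers, by least for Gstm1 to Gstm4. That ratio was 6.51, 6.13 and 6.06 in the control and 7.99, 6.67 and 7.23 in the treated livers. Its range over the 6 livers was the narrowest of all 21 pairs, the highest value being 1.32 times the lowest. Gstm1 to Gstm3 was 1.55, 1.05 and 1.199 in the treated livers, a log2 difference of -2.35 from control, and Gstm3 to Gstm4 was 5.15, 6.34 and 6.03.

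Each pair's log2 ratio was compared between the groups with a two-sided exact permutation test. With 3 against 3 livers this test cannot go below 0.10, and 16 of the 21 pairs did not overlap and reached that value (adjusted over the pairs, exact permutation p = 0.131). The pairs share genes and are not independent, and the same share over pairs of other genes was not computed, so the count is a description. All 6 pairs with Gstm3 were among them, as were 5 pairs with Gstm7. Gstm1 to Gstm4 was too, with a log2 difference of 0.22. The largest difference, 4.69, was between Gstm3 and Gstm7. Gstm4 to Gstm6 and Gstm1 to Gstm2, with exact permutation p of 0.9 and 0.3, overlapped.

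**Figure D3:**
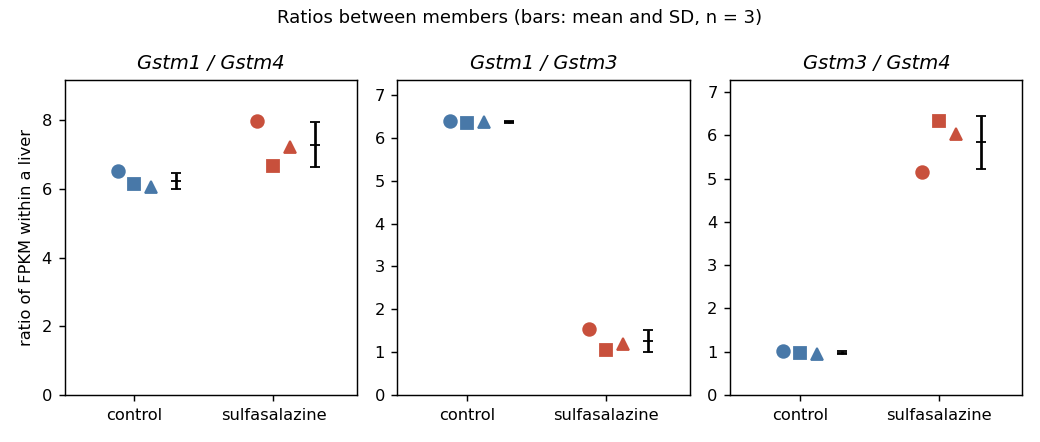
Ratio of FPKM between Gstm1, Gstm3 and Gstm4 within each liver (vertical axes start at 0), with group means and SD (n = 3) to the right of the points. Gstm1 to Gstm4 stays between 6.06 and 7.99 in all livers, while Gstm1 to Gstm3 is near 6.4 in control livers and between 1.05 and 1.55 in treated livers.

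Along the chromosome the fold changes peaked in the middle of the cluster. Gstm5 and Gstm7 at its start had 0.11 and -0.75, Gstm6 and Gstm3 had 1.05 and 3.77, and Gstm2, Gstm1 and Gstm4 had 2.07, 1.51 and 1.23. The nearest 2 tested protein-coding genes on each side were looked up after these values were seen. Ahcyl1 had a log2 fold change of -0.08, Csf1 -0.31 and Ampd2 0.22, each with a 95% interval that holds 0. Gnai3, a G protein subunit beyond Ampd2, had 14.4, 18.8 and 6.44 FPKM in the control livers and 19.98, 21.9 and 19.4 in the treated livers, without overlap, a log2 fold change of 0.71 (95% interval -0.17 to 1.58; limma, adjusted p = 0.732). An assembled locus within the cluster that the table labels Gstm4 but that carries no Ensembl transcript had at most 1.65 FPKM and was at 0 in sulfasalazine 1 and 3.

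**Figure D4:**
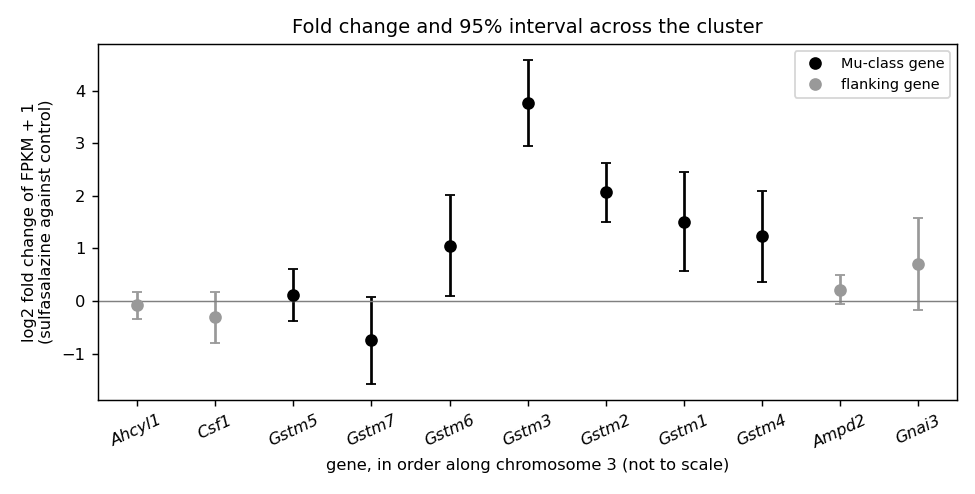
Log2 fold change of FPKM + 1 with its 95% limma interval for the 7 Mu-class genes (black) and the nearest 2 tested protein-coding genes on each side (grey), in chromosome order. Gstm3 has the largest value, 3.77, with values of 2.07, 1.51 and 1.23 for the genes after it.

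Because several members were higher together, the stretches before their start sites were searched for short motifs. The windows are the 250 bases before each RefSeq start, all from GRCm38.p6, and all 7 genes matched. Part of a window can lie past the GENCODE start. This part was 109 bases for Gstm3, 35 for Gstm4, 33 each for Gstm2 and Gstm5, 15 for Gstm6 and 0 for Gstm1 and Gstm7. Before its GENCODE start, only 141 bases of Gstm3 were thus searched. For the 3 genes with the largest higher values the bases that lie before both the RefSeq and the GENCODE start are shown, on the reverse strand and 5′ to 3′. They cover chr3:107969284-107969424 for Gstm3, chr3:108017974-108018223 for Gstm1 and chr3:107986454-107986670 for Gstm2. Capitals mark motif matches, of which only Gstm1 has any.
Gstm3: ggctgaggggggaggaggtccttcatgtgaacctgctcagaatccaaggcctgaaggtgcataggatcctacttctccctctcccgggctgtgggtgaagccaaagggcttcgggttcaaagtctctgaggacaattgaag
Gstm1: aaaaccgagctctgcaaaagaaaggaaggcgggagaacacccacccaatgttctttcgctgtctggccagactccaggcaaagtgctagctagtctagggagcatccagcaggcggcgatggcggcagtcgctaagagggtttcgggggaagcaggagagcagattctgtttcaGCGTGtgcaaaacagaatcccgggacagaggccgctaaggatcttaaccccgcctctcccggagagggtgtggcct
Gstm2: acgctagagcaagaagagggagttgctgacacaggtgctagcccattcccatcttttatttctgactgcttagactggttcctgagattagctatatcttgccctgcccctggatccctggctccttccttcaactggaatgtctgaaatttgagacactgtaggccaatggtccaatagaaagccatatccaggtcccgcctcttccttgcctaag

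The motifs searched on both strands were TGACNNNGC, the core of the antioxidant response element that NRF2 binds, AGGTCA and AGTTCA, half-sites of nuclear receptors such as CAR and PXR, and GCGTG, the core bound by the aryl hydrocarbon receptor. TGACNNNGC was found in 1 of the 7 windows, that of Gstm5, where it overlaps a GCGTG on the other strand, and in 10.2% of all 32851 windows in the table. AGTTCA was likewise found for Gstm5 only, beside 11.8% of all windows. AGGTCA was found for 0 members, beside 14.0%, and GCGTG for Gstm1 and Gstm5, beside 28.2%. A match is a description of the letters, and its absence says only that they do not occur in this window.

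The Mu class was set beside the transferases of other classes. Their 14 loci summed to 1220, 1417 and 1133 FPKM in the control livers and 1250, 1290 and 1314 FPKM in the treated livers, and the groups overlapped. The Mu class made up 8.35%, 14.6% and 10.6% of all listed transferase FPKM in the control livers and 32.4%, 27.2% and 31.4% in the treated livers. Of 13 tested loci 0 passed in either direction, and the median log2 fold change was 0.15. Without overlap 4 were higher and 0 lower, beside 6.71% and 6.46% of all tested loci. Gsta1 and Gsta2, Alpha-class enzymes, were at 0.518 to 1.12 and 0.867 to 3.15 FPKM in control and at 13.5 to 26.9 and 9.05 to 10.96 FPKM in treated livers. Their log2 fold changes were 3.43 and 1.94 (limma, adjusted p = 0.0524 and 0.171), and since these 2 genes are nearly identical copies, reads may be split between them uncertainly. Gstt2, of the Theta class, had 0.88 (limma, adjusted p = 0.467). The most abundant, membrane-bound Mgst1 and the locus that pools Gstp1 with Gstp2, had 0.25 and -0.50 (limma, adjusted p = 0.780 for each).

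Genes that supply glutathione were read next. Of 11 tested loci 0 passed, with a median of 0.21, and 3 were higher without overlap, beside 6.71% of all tested loci. These were Gsr, which regenerates reduced glutathione, at 0.41, and Pgd and Me1, which make NADPH, at 0.37 and 0.59 (limma, adjusted p = 0.513, 0.636 and 0.711). Gclc, the catalytic subunit of the enzyme that limits glutathione synthesis, had 52.4, 111 and 56.4 FPKM in the control livers and 91.8, 74.1 and 81.6 in the treated livers. Control 2 was the highest control here as well, and for Gclc also the highest of all livers. The log2 fold change was 0.25 (limma, adjusted p = 0.884). Cth, which makes cysteine, had -0.19 (limma, adjusted p = 0.911).

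Of the 11 tested loci for conjugate export and mercapturate formation 0 passed, and the median was 0.15. Here 2 were higher without overlap, beside 6.71% of all tested loci. The exporter Abcc4 was at 0.572, 0.448 and 0.687 FPKM in the control livers and at 3.88, 2.91 and 2.23 in the treated livers, a log2 fold change of 1.33 (limma, adjusted p = 0.147). Abcc3, a basolateral exporter, was at 76.2 to 90.3 and 117 to 143 FPKM, a log2 fold change of 0.67 (limma, adjusted p = 0.370). The dipeptidase Cndp2 had 0.31 and the aminopeptidase Lap3 -0.02 (limma, adjusted p = 0.726 and 0.984).

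Of 13 tested regulators 0 passed, with a median of 0.06. Mean FPKM of Nfe2l2, which encodes NRF2, was 8.59 without and 9.06 with the drug, and that of Nr1i3, which encodes CAR, 16.6 and 17.2. Without overlap 2 of the 13 were higher and 0 lower, beside 6.71% and 6.46% of all tested loci. These were Hnf4a and Maff, higher by 0.27 and 0.17 on the log2 scale (limma, adjusted p = 0.730 and 0.801). The control livers have Cebpa, a hepatocyte transcription factor, at a listed 0, 0 and 69.6 FPKM, beside 62.4, 91.6 and 82.2 in the treated livers. A listed 0 for so abundant a gene may be a failed estimate, and no fold is given.

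**Figure D5:**
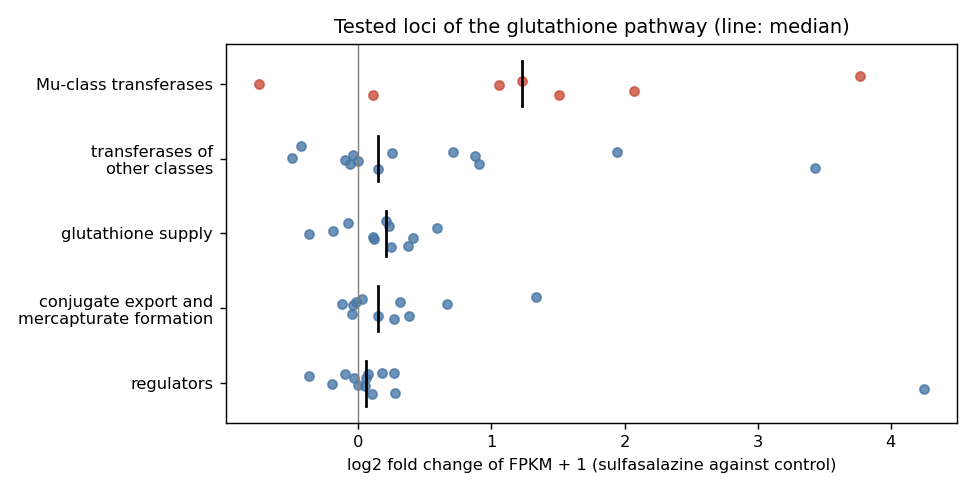
Log2 fold change of FPKM + 1 for the tested loci of the Mu class (red) and of 4 lists around the glutathione pathway (blue), with a line at each median. The Mu-class median is 1.23 and the other medians lie between 0.06 and 0.21; the point above 4 among regulators is Cebpa, listed at 0 in 2 control livers.

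Among genes commonly used to read out induction, 1 of 10 tested loci passed, upward, beside 0.0167% of all tested loci. Groups did not overlap for 4 tested loci upward and 0 downward, beside 6.71% and 6.46% of all tested loci. Of the 11 listed genes, Cyp1a1 failed the filter and enters neither count. It had 283, 0.339 and 0.548 FPKM in controls 1 to 3 and 0.216 to 0.301 in treated livers, lower without overlap. Cyp2c55, a cytochrome P450, was at 0.543 to 0.891 FPKM in control livers and at 16.8 to 26.4 in treated livers. It thus passed the filter only through the treated livers. Its log2 fold change was 3.64 (limma, adjusted p = 0.0120), and Cyp2b10, a CAR marker, had 1.79 (limma, adjusted p = 0.281). For Cyp2b10 control 2 was the lowest control, with 27.2, 9.76 and 19.4 FPKM in controls 1 to 3. The abundant Cyp3a11 had a log2 fold change of 0.43 (limma, adjusted p = 0.819). Gsta1 and Gclc, given above, are counted in this list too. The remaining genes went both ways: Nqo1 had 0.86 and Ephx1 0.91 (limma, adjusted p = 0.586 and 0.382). Hmox1 had -0.45 and Srxn1 -0.47 (limma, adjusted p = 0.867 and 0.908). Cyp1a2, an aryl hydrocarbon receptor target, stood at 2356 FPKM in control 1 and at 195 to 380 FPKM in the other livers, and its log2 fold change was -0.96 (limma, adjusted p = 0.861). Control 1 was also the lowest control liver for Gstm1, Gstm2, Gstm3, Gstm4 and Gstm5. Without it the log2 fold changes were 1.23 for Gstm1, 1.91 for Gstm2, 3.51 for Gstm3 and 0.94 for Gstm4, each smaller than with all livers, and that of Gstm5 turned sign as given above.

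The loci most like the family sum were sought over the 6 livers, among 7211 loci outside the family that hold 1 gene and average 2 FPKM or more in either group. The 5 highest Pearson correlations of log2(FPKM + 1) were 0.998 for Abtb1, 0.996 for Prpf19, 0.989 for Fbxo6, 0.984 for Anxa7 and 0.983 for Cyp2a5. These livers share the 2 groups, so a gene that differs between the groups correlates through that difference. Cyp2a5, a coumarin hydroxylase that can share reads with its near-identical neighbour Cyp2a4, had 10.9, 44.0 and 21.4 FPKM in the control livers, where control 2 was again highest, and 516, 374 and 302 FPKM in the treated livers. Abtb1 spanned far less, from 2.92 to 3.31 FPKM in control and from 3.71 to 3.798 in treated livers.

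Markers of zones and of other cell types were read beside these values. Pericentral genes such as Glul and Cyp2e1, which mark the hepatocytes around the central vein, had summed FPKM of 1493 to 1951 and, with the drug, 1385 to 2172, and 0 of 9 tested loci passed. Periportal genes summed to 1166 to 1218 and 850 to 1553 FPKM, Kupffer cell and macrophage genes to 76.9 to 307 and 121 to 143, and endothelial genes to 44.2 to 52.7 and 51.1 to 56.5. Each of these ranges overlapped, with 0 called loci. Single genes did not all overlap. Of 7 tested endothelial loci 1, Dnase1l3, was higher, and of 8 tested periportal loci 1, Hal, was lower, beside 6.71% and 6.46% of all tested loci. Their log2 fold changes were 0.84 and -0.25 (limma, adjusted p = 0.171 and 0.726). Of the 8 hepatocyte loci 1, Hnf4a, was higher without overlap. Among them 1 was lower, a locus that pools Trf with other genes, at -0.49 (limma, adjusted p = 0.711). Stellate cell marker sums lay only just apart, at 74.5 to 97.0 FPKM in control and 59.1 to 73.9 in treated livers. Dcn alone averaged 44.1 and 35.1 FPKM. Of 6 tested stellate loci 0 were called, 2 were lower without overlap, beside 6.46% of all tested loci, and 1 had a positive fold change. Of the 7 stellate markers, 0 were at 0 in all livers. Their part in the Mu-class values was not tested.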

How the data were processed

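The authors deposited FPKM per assembled locus, per the file headers. Tools named in the submitters' processing notes are StringTie, Bowtie2, cutadapt and FastQC; the build there is GRCm38.p5, and versions and annotation release are not given. The labels' protocols state ribosomal RNA depletion. Of 24822 loci with an Ensembl transcript, 24750 were matched to GENCODE M21; 717 loci pool more than 1 gene. Depth is unknown, so no counting interval is given.

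R 4.3.3 and limma 3.58.1 fitted log2(FPKM + 1) with a trend of variance on level. All 11969 loci that reached 1 FPKM in 3 or more libraries entered, p-values were adjusted over them by Benjamini-Hochberg, and the threshold was 0.05. Fold changes on that scale understate changes of low genes. The procedure was tested on simulated data. Pair ratios were tested with an exact permutation test. Coding alignments used Biopython 1.88 and figures matplotlib 3.10.9.

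The members, the gene lists and the alternatives were chosen with earlier results of these data known. Outside the family the text names loci of the 5 pathway lists by rule, and the 5 loci most like the family sum. By that rule each list gives loci past the threshold, the 3 with the smallest p and the 2 most abundant. The flanking genes, Nfe2l2, Nr1i3 and marker examples were named after their values were seen. So were Cyp1a1, Nqo1, Ephx1, Hmox1 and Srxn1 among the induction genes. Alternatives changed the pseudocount, filter, scaling, trend, loci, block and libraries used. The doses of 250 and 500 mg/kg were not analysed here.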

Additional observations from a re-analysis of the deposited data

How the results depend on the processing

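Of 111 member values under alternatives, 103 kept their direction and side of the threshold, 6 newly passed and 2, both of Gstm5, turned sign. Gstm3 kept a log2 fold change of 3.77 and passed under 4 settings: a minimum of 5 FPKM, no trend in limma, Ensembl-annotated loci alone, and FPKM summed per gene name; Gstm2, at 2.07, passed with no trend. The members called higher, 0 in the fit reported, were therefore 1, 2, 1 and 1 in that order. Of all tested loci, 2 were called higher; this count was 1 for either smaller pseudocount (0.1, 0.01), 0 for the unfiltered table, 6, 23, 9 and 7 under the same 4 settings, and 0 under the replicate block. Against 0 called lower, the first 3 of the 4 settings gave 1, 22 and 3. Leaving out 1 liver gave 0 to 1 members called higher, 1 to 8 loci higher and 0 to 6 lower. Log2 fold changes then lay between 1.23 and 1.89 for Gstm1, 1.91 and 2.24 for Gstm2, 3.51 and 4.13 for Gstm3, 0.94 and 1.604 for Gstm4, -0.072 and 0.23 for Gstm5, 0.82 and 1.40 for Gstm6, and -1.07 and -0.38 for Gstm7. The log2 ratio of the mean family sums, taken without a pseudocount, then lay between 1.58 and 2.19, highest without control 2. The sum without the Gstm1 locus was an alternative added after seeing the data. With the replicate number as a block Gstm3 kept 3.77 (limma, adjusted p = 0.384), and 0 members were called. Same-numbered livers did not deviate together over the tested loci (correlations of 0.00967, -0.0668 and -0.0222). Differently numbered livers gave -0.028 to 0.051. Such a check cannot tell whether same-numbered livers shared a cage, day or batch. What causes these differences was not tested. FPKM hide the depth, which limits low genes such as Gstm5 by an amount that cannot be given.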
